A study of Mus musculus with 32 samples.

Results

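The 10 genes Fads1, Fads2, Scd1, Scd2, Elovl5, Elovl6, Fasn, Acaca, Acly and Acsl3 encode enzymes that make, lengthen, desaturate or activate fatty acids. They were followed in CD4+ T cells of DO11.10 TCR transgenic Balb/c mice, whose T cell receptor recognises an ovalbumin (OVA) peptide. The genes were picked by name with results of these arrays already known, in which several of them were lower than in OVA-stimulated cells of full medium. The differences from OVA alone at 48 h and 72 h are therefore a description: levels and differences are given without p-values, and genes called there are only counted beside the share of all features called. The other comparisons carry p-values. Except where both groups lacked OVA, they share arrays with the comparisons behind the choice, so their p-values are not independent of it. On the 48 h platform (MoGene-2_0-st, 23 arrays, 23627 genes or shared probe sets tested), 8 of the 10 genes had a probe set of their own. There, Scd2 was read by a probe set annotated to Scd2 and Mir5114, a microRNA gene that RefSeq places within Scd2, and Acsl3 by a probe set annotated to Acsl3 and Utp14b, which RefSeq places within Acsl3. These shared probe sets are named by both genes and counted apart. On the 72 h platform (HT_MG-430_PM, 9 arrays, 17401 tested), 9 of the 10 had their own probe sets, and Scd2 was not analysed there.

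All T cells came from axial and cervical lymph nodes and were cultured on peritoneal macrophages elicited with thioglycollate, which served as antigen-presenting cells and were present in every culture. Viable CD4+ singlets were sorted, and each array held 100 ng of RNA. At 48 h the groups with OVA peptide were cells on macrophages that IL-4 and IL-10 had pretreated (each at 10 ng/mL, then washed away), cells given 1% of the usual RPMI amount of arginine, of leucine or of lysine, and cells in full medium, with 3 arrays each. Cells without OVA at 48 h were kept in the low arginine (2 arrays), low leucine (3) and low lysine (3) media, and none of the 48 h arrays used here held full medium without OVA. At 72 h there were 3 arrays each of OVA on pretreated macrophages, OVA alone and no OVA. Nothing in the labels says that replicates were separate animals or cultures, so the spread behind each p-value is that between these samples and may be technical.

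New fatty acids are made in the cytosol from acetyl-CoA, which ATP citrate lyase (Acly) releases from citrate. Acetyl-CoA carboxylase (Acaca) turns it into malonyl-CoA, and fatty acid synthase (Fasn) builds palmitate from both. Elovl6 lengthens palmitate, and the stearoyl-CoA desaturases Scd1 and Scd2 place the first double bond, which gives monounsaturated acids such as oleate. Fads2 and Fads1 act in turn on polyunsaturated acids, which Elovl5 lengthens between those steps, and Acsl3 couples long-chain fatty acids to coenzyme A. Many of these genes are known targets of the SREBP transcription factors, which activated T cells use to supply lipid for growth and division. In RefSeq, Fads1 and Fads2 are neighbours with 0 protein-coding genes between them, and 1 such gene lies between Scd1 and Scd2.

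Promoter windows from RefSeq (GRCm38.p6, the 250 bases before each gene start) were at hand for 7 of the 10 genes. The windows of Fads2, which was far below its full-medium level in 4 conditions at 48 h, Fasn, which OVA raised in every low medium, and Elovl5, whose levels spanned the smallest range at 48 h, are shown 5′ to 3′ on the strand of the gene. Capitals mark CCAAT on either strand, the letters of the NF-Y element; TCACNCCAC, the letters of a sterol regulatory element, would also be in capitals and did not occur.
Fads2 (chr19:10101504-10101753, minus strand): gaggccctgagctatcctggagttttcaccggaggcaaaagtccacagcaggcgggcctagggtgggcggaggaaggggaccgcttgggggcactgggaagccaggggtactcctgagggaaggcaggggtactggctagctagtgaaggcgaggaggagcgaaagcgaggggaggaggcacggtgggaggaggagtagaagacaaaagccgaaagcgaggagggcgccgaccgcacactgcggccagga
Fasn (chr11:120824548-120824797, minus strand): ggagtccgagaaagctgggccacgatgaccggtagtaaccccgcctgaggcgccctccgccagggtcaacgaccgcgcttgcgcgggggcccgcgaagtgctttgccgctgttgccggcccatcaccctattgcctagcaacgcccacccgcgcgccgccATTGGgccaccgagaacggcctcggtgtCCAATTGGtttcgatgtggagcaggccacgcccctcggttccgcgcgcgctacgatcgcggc
Elovl5 (chr9:77917115-77917364, plus strand): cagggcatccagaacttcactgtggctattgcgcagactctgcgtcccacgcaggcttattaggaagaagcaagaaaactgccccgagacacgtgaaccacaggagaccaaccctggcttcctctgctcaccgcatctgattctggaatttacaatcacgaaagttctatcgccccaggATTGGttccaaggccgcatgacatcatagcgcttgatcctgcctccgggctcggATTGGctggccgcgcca
Matches to CCAAT were found in the windows of 3 of the 7 genes (Fasn, Elovl5 and Acsl3), against 33.8% of all 32851 windows. The letters TCACNCCAC were in 0 of the 7, against 1.1% of all windows. CANNTG, the E box, was in 4 of 7 (66.2% of all windows), and GGGCGG, the Sp1 box, in 3 of 7 (32.7% of all windows). In the Fasn window 3 CCAAT matches lay within 90 bases of the start, and its only E box match overlapped 2 of them. The Fads2 window held 1 GGGCGG match and no CCAAT. All motifs were searched on both strands, and the matches only describe letters in these windows.

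On the log2 scale of the deposited RMA values, the median of an array was 5.45 to 5.75 at 48 h and 3.87 to 4.04 at 72 h. The files give no detection calls, so a low level has no stated background. T cell markers (8 of 10 measured) averaged 10.11 to 11 in the 48 h arrays. At 72 h they averaged 10.39 to 10.75 with pretreated macrophages and 10.24 to 10.83 with OVA alone, against 9.31 to 9.59 without OVA. The list of alternatively activated macrophage genes (6 of 6 measured) averaged 7.16 to 7.74 in the pretreated arrays at 48 h, against 5.49 to 5.69 with OVA in full medium. At 72 h the no-OVA arrays stood apart. Mesothelial and stromal markers (15 of 15 measured) averaged 4.47 to 6.12 with pretreated macrophages and 4.17 to 4.53 with OVA alone, against 9.70 to 9.87 without OVA. Levels in these sorted bulk samples cannot tell fewer cells of a kind from less RNA per cell.

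At 48 h all 8 genes and both shared probe sets averaged lower with OVA in each low amino acid medium, and on pretreated macrophages, than with OVA in full medium. Fads2 and Scd1 differed from full medium by -3.83 to -4.90 on the log2 scale over the 4 conditions, and Elovl5 by at most -0.65. The mean differences of the others lay in between in each condition, except that the Scd2 / Mir5114 probe set passed Scd1 in low lysine. Of the 8 genes with their own probe set, 7 were called lower with pretreated macrophages, 7 in low arginine, 8 in low leucine and 8 in low lysine (limma, adjusted p below 0.05). Among all features, 5.86%, 3.07%, 1.51% and 6.25% were called lower in those comparisons, and since they helped to choose the genes nothing is read from the counts. Their median difference was -1.56, -1.36, -1.04 and -1.26 on the log2 scale, against medians of 0.01, 0.009, 0.003 and 0.025 over all features. The 4 comparisons share the full-medium arrays. Those arrays and the pretreated ones also belong to other runs of submitter sample IDs than the low amino acid arrays, so run and medium cannot be told apart.

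**Figure D1:**
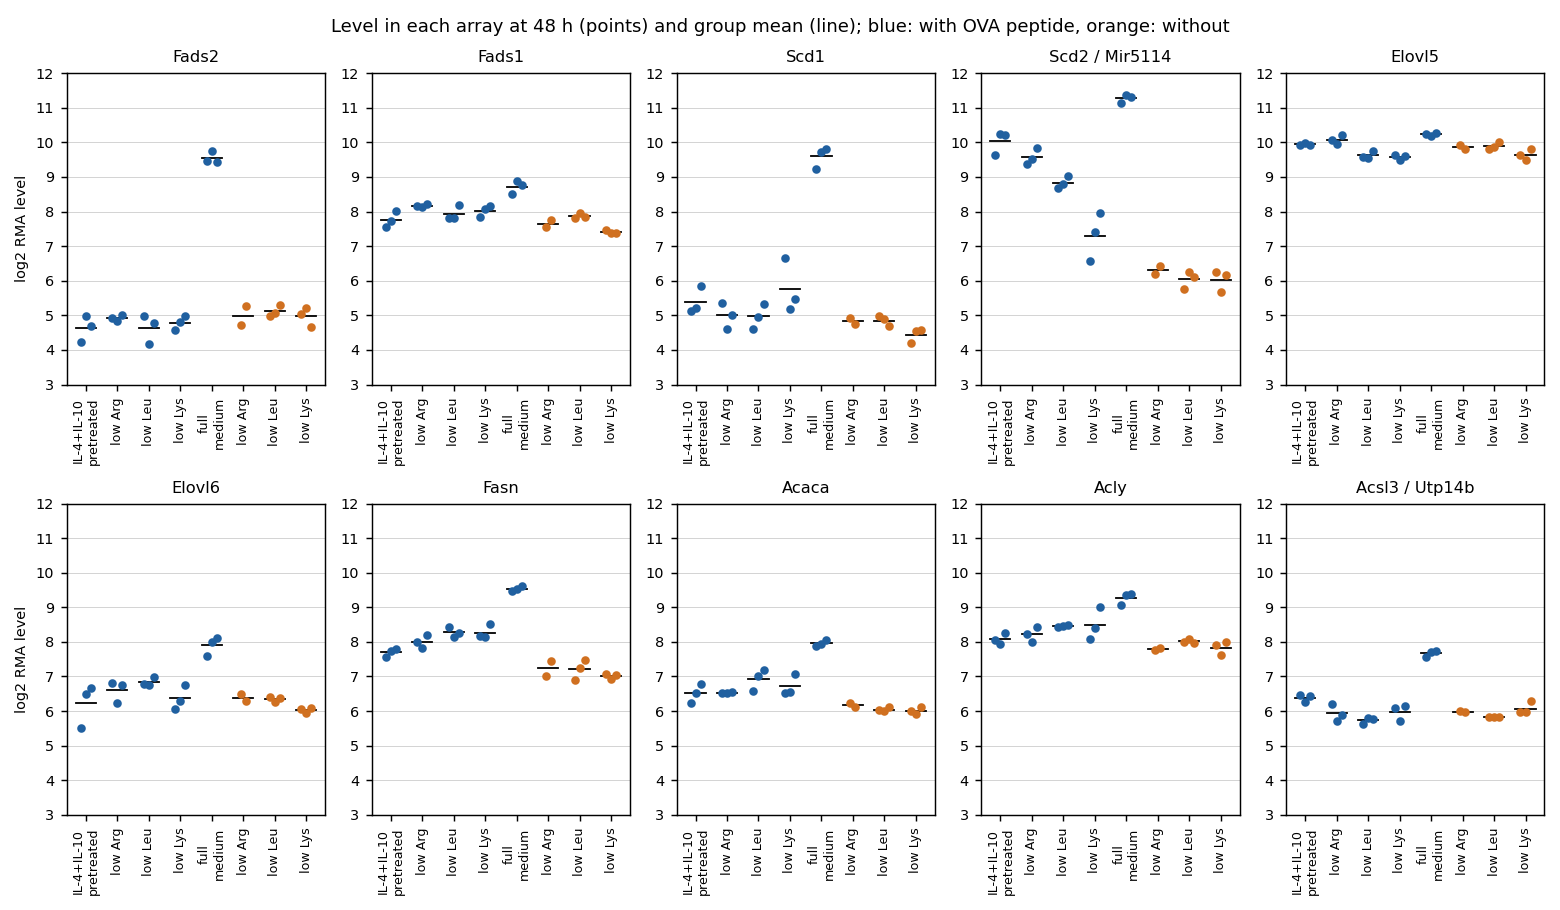
Log2 RMA level (y axis) of each gene in every array at 48 h, one panel per gene or shared probe set; points are arrays, lines are group means, blue is with OVA and orange without. Fads2 and Scd1 sit above 9 in full medium with OVA and below 7 in all other groups, while the Scd2 / Mir5114 means with OVA descend in the order pretreated, low arginine, low leucine and low lysine, all below full medium.

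Fads2, the desaturase that starts the synthesis of long polyunsaturated fatty acids, had levels of 4.22, 4.99 and 4.70 on pretreated macrophages. In low arginine it had 4.92, 4.83 and 5.02, in low leucine 4.97, 4.17 and 4.78, and in low lysine 4.59, 4.81 and 4.97, all with OVA, against 9.45, 9.74 and 9.43 in full medium with OVA. The full-medium arrays stood far above all others, which lay between 4.17 and 5.31 with overlapping groups, those without OVA included. Mean differences from full medium were -4.90 (pretreated), -4.62 (low arginine), -4.90 (low leucine) and -4.75 (low lysine), each ± 0.21 (SE). All levels outside full medium lay below the median of every array. With no stated background, whether and how far the true differences exceed the measured ones is unknown.

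Its neighbour Fads1, the desaturase that acts later in the same route, differed far less. Levels were 7.56, 7.73 and 8.02 on pretreated macrophages, 8.16, 8.12 and 8.21 in low arginine, 7.81, 7.82 and 8.19 in low leucine, and 7.84, 8.08 and 8.17 in low lysine. In full medium with OVA they were 8.51, 8.87 and 8.77, above every other array. The differences were -0.95, -0.55, -0.77 and -0.69 (± 0.14 SE each). In low arginine the difference ran from -0.66 to -0.47 over the 6 fits that left out 1 array.

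Scd1, a stearoyl-CoA desaturase, followed Fads2 closely. On pretreated macrophages it had 5.12, 5.20 and 5.84, in low arginine 5.37, 4.61 and 5.02, in low leucine 4.60, 4.96 and 5.34, and in low lysine 6.67, 5.17 and 5.46, against 9.23, 9.73 and 9.82 in full medium with OVA. The first low lysine array was the highest outside full medium, and its B cell markers (4 of 5 measured, mean 7.14) were also above those of the other low lysine arrays (6.30 and 5.74) and of full medium (5.47 to 5.66); their part in the result was not tested. Differences from full medium were -4.21, -4.60, -4.63 and -3.83 (± 0.29 SE). Most of these Scd1 levels outside full medium lay below the median of every array. With no stated background, whether and how far the true differences exceed these is unknown.

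The probe set annotated to Scd2 and Mir5114 was graded rather than uniformly low. It read 9.64, 10.25 and 10.20 on pretreated macrophages, 9.37, 9.51 and 9.85 in low arginine, 8.67, 8.81 and 9.02 in low leucine, and 6.56, 7.40 and 7.96 in low lysine. Full medium with OVA gave 11.14, 11.38 and 11.31, above all of them. The differences were -1.25, -1.70, -2.44 and -3.97 (± 0.25 SE), so that low lysine was 15.7-fold below full medium and pretreatment 2.37-fold.

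Among the elongases, Elovl6, which lengthens palmitate, had 5.52, 6.48 and 6.67 on pretreated macrophages and ranged from 6.06 to 6.99 over the low amino acid arrays with OVA, against 7.58, 8.00 and 8.12 in full medium. All full-medium arrays were above the rest. Its differences were -1.68, -1.30, -1.06 and -1.54 (± 0.23 SE), and that of low leucine ran from -1.22 to -0.95 over the 6 fits without 1 array. Elovl5, which lengthens polyunsaturated acids, had the smallest differences. It had 9.93, 9.99 and 9.92 on pretreated macrophages and 10.08, 9.96 and 10.21 in low arginine, against 10.24, 10.18 and 10.27 in full medium. The low arginine and full-medium arrays overlapped, and the differences were -0.28 (pretreated) and -0.15 (low arginine), each ± 0.10 (SE). In low leucine (9.59, 9.55 and 9.74) and low lysine (9.65, 9.49 and 9.60) the arrays lay below those of full medium, with differences of -0.60 and -0.65.

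The genes of palmitate synthesis differed by similar amounts. Fasn had 7.57, 7.75 and 7.78 on pretreated macrophages, 8.01, 7.83 and 8.19 in low arginine, 8.43, 8.14 and 8.27 in low leucine, and 8.16, 8.13 and 8.51 in low lysine, against 9.47, 9.52 and 9.62 in full medium. No array of those groups reached the full-medium level, and the differences were -1.84, -1.53, -1.26 and -1.27 (± 0.15 SE). Acaca differed by -1.44, -1.42, -1.02 and -1.24 (± 0.16 SE), with 6.24 to 7.19 over the arrays of those groups against 7.88 to 8.04 in full medium. For Acly the differences were -1.18, -1.05, -0.79 and -0.77 (± 0.17 SE), with 7.93 to 9.0 against 9.07 to 9.37. One low lysine array, at 9.0, came near full medium, and without the first low lysine array the Acly difference was -0.57. The probe set annotated to Acsl3 and Utp14b differed by -1.29, -1.74, -1.93 and -1.70 (± 0.14 SE), with 5.62 to 6.47 against 7.55 to 7.74.

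**Figure D2:**
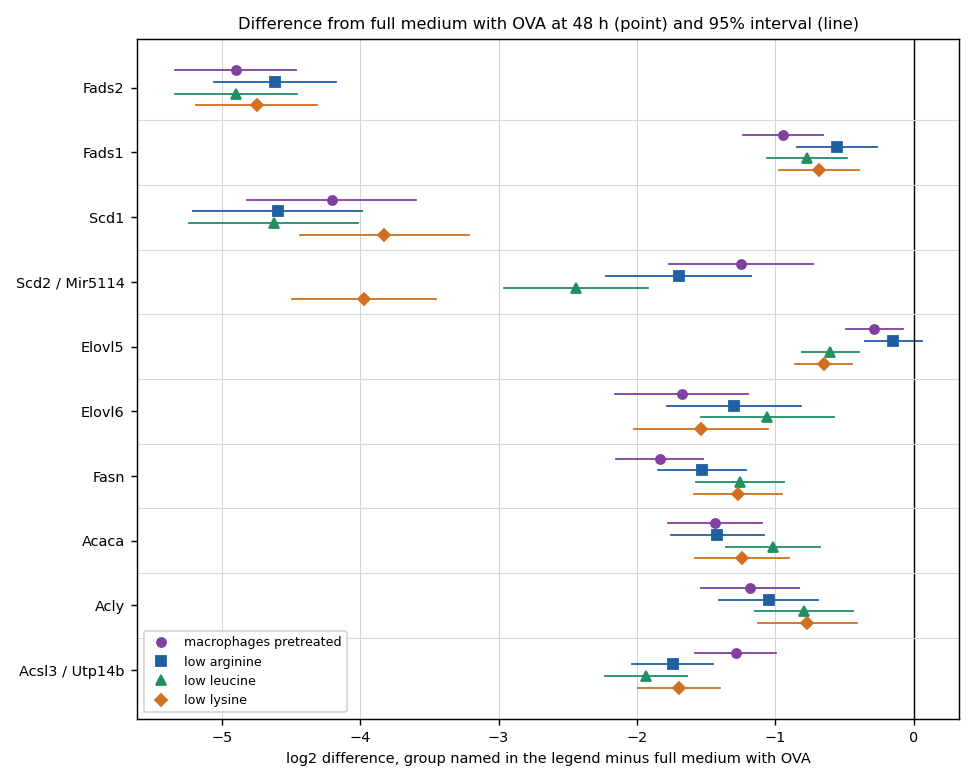
Mean log2 difference from full medium with OVA at 48 h (x axis) for each gene or shared probe set (y axis), with its 95% interval as a line; the 4 conditions are marked by colour and shape. Fads2 and Scd1 lie between -3.83 and -4.90 in all 4 conditions, whereas the Scd2 / Mir5114 probe set spreads from -1.25 to -3.97.

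Whether OVA raised these genes in the low media was asked against cells kept without OVA in the same medium. Antigen raised Fasn in every low medium, Acaca and Acly in some, and left Fads2 without a call in any. In low arginine 2 of the 8 genes rose and 0 fell, in low leucine 3 rose and 1 fell, and in low lysine 5 rose and 0 fell. OVA changed a large part of the transcriptome, with 29.4%, 41.7% and 31.1% of all features called (17.1%, 21.8% and 18.2% higher, and 12.3%, 19.9% and 12.8% lower), so the counts in low arginine and low leucine lie near the background and the count in low lysine lies above it. The low lysine count depended on the scaling: quantile normalization ended the calls of Acly and Fads1 there and made Elovl5 a called fall. The median difference of the 8 genes was 0.28, 0.28 and 0.65, against -0.12, -0.13 and -0.09 over all features. Macrophage markers (13 of 14 measured) averaged 5.86 to 6.49 with OVA and 6.74 to 7.16 without in these media. T cell markers averaged 10.59 to 11 with OVA and 10.11 to 10.55 without. Mesothelial and stromal markers averaged 5.32 to 5.60 with OVA and 5.71 to 6.46 without, and adipocyte markers (7 of 8 measured) 4.81 to 5.59 with OVA and 5.67 to 6.17 without. Their part in the results was not tested.

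Fasn, with the OVA levels given above, had 7.02 and 7.45 without OVA in low arginine, 6.89, 7.25 and 7.48 in low leucine, and 7.07, 6.93 and 7.05 in low lysine. With OVA all arrays were higher than those without. It rose by 0.77 ± 0.17 (SE; limma, adjusted p = 0.00154), 1.07 ± 0.15 (7.89e-06) and 1.25 ± 0.15 (1.35e-06). In low arginine the rise missed the threshold without the first no-OVA array (0.56, adjusted p = 0.0712) and after quantile normalization (0.37, adjusted p = 0.0776).

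Acaca had 6.59, 7.02 and 7.19 with OVA in low leucine, against 6.02, 5.99 and 6.12 without, and rose by 0.89 ± 0.16 (limma, adjusted p = 0.000149). In low lysine it had 6.53, 6.54 and 7.07 with OVA, against 6.0, 5.92 and 6.12 without, and rose by 0.70 ± 0.16 (adjusted p = 0.00224). In low arginine the 3 arrays with OVA (6.52 to 6.55) were above both without (6.13 and 6.23), with a difference of 0.35 ± 0.18 that missed the threshold (adjusted p = 0.151). Acly rose by 0.45 ± 0.17 in low leucine (adjusted p = 0.0412) and 0.66 ± 0.17 in low lysine (0.0055), and was higher by 0.43 ± 0.19 in low arginine without passing (0.0963). The low leucine call was lost in 6 of 6 fits that left out 1 array. The low lysine call was lost without the third OVA array (0.40, adjusted p = 0.059), with only the groups compared (adjusted p = 0.0717) and after quantile normalization (0.22). Quantile normalization turned the low leucine difference to -0.08. The low arginine difference passed after centring arrays on their medians (0.62, adjusted p = 0.0346) and with only the groups compared (0.0449).

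Fads1 rose with OVA in low arginine, where it had 8.16, 8.12 and 8.21 against 7.54 and 7.75 without OVA (0.52 ± 0.16, limma, adjusted p = 0.0157). It also rose in low lysine, where it had 7.84, 8.08 and 8.17 against 7.46, 7.37 and 7.37 (0.63 ± 0.14, adjusted p = 0.00134). The groups did not overlap in either medium. In low leucine, 7.81, 7.82 and 8.19 overlapped 7.82, 7.96 and 7.83, with a difference of 0.07 ± 0.14 (adjusted p = 0.707). Quantile normalization ended both calls (0.06 and 0.23) and turned the low leucine difference to -0.43 (adjusted p = 0.00896), and without the first no-OVA array the low arginine difference was 0.41 (adjusted p = 0.166).

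Fads2 was low in these media with OVA and without it. Without OVA it had 4.73 and 5.26 in low arginine, 4.98, 5.07 and 5.31 in low leucine, and 5.04, 5.22 and 4.67 in low lysine. Differences of OVA from no OVA were -0.08 (95% interval -0.57 to 0.41), -0.48 (-0.92 to -0.04) and -0.19 (-0.62 to 0.25), and none passed after adjustment over all features (limma, adjusted p = 0.83, 0.0739 and 0.535). All these Fads2 levels lay below the median of every array. With no stated background, the intervals describe measured levels only. In low leucine, where all OVA arrays were below those without, leaving out the first OVA array gave a fall of 0.64 that passed (adjusted p = 0.0325).

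Scd1 rose with OVA in low lysine alone among the calls. It had 6.67, 5.17 and 5.46 with OVA there, against 4.19, 4.54 and 4.59 without, and no arrays overlapped (1.33 ± 0.29, limma, adjusted p = 0.00139). Without the first OVA array, the one with high B cell markers, the rise was 0.88 (adjusted p = 0.0117). In low arginine the difference was 0.17 (95% interval -0.51 to 0.86) and in low leucine 0.12 (-0.49 to 0.73), and the groups overlapped in both. All Scd1 levels without OVA in the 3 media (4.19 to 4.97) lay below the median of every array, with no stated background. Whether the Scd1 effect differs between the media did not pass the moderated F test (adjusted p = 0.395).

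The Scd2 / Mir5114 probe set responded to OVA in every low medium. Without OVA it read 6.20 and 6.42 in low arginine, 5.77, 6.26 and 6.11 in low leucine, and 6.26, 5.68 and 6.16 in low lysine, which overlap. With OVA it was higher in all arrays of each medium, by 3.27 ± 0.28 in low arginine (limma, adjusted p = 1.3e-08), 2.79 ± 0.25 in low leucine (1.5e-08) and 1.27 ± 0.25 in low lysine (0.000459). These are rises of 9.62-fold, 6.90-fold and 2.41-fold. The size of the OVA effect differed between the media by the moderated F test (limma, adjusted p = 0.038, 1 of 39 features called, 0.165% of all). Relative to the effect in low arginine it differed by -0.48 in low leucine and -2.0 in low lysine. None of the 8 genes passed that test, and 3 of them (Elovl5, Fads1 and Scd1) had an unadjusted p below 0.05. That call was lost in 15 of the 17 fits that left out 1 array, with adjusted p between 0.0032 and 0.154 over the 17; it held without the third OVA array of low lysine or the first no-OVA array of low leucine.

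Elovl5 went the other way in low leucine. It had 9.59, 9.55 and 9.74 with OVA, against 9.80, 9.87 and 10.01 without, and fell by 0.27 (± 0.10 SE, limma, adjusted p = 0.0362). The call was lost in 4 of the 6 fits without 1 array and after centring arrays on their medians, where the difference was -0.08 (adjusted p = 0.61). It was also lost without the intensity trend (limma, adjusted p = 0.0591) and with only the groups compared (adjusted p = 0.105). In low arginine and low lysine Elovl5 differed by 0.21 and -0.07, and neither passed. These signs depended on the scaling: centring gave 0.39 in low arginine (adjusted p = 0.0221) and 0.07 in low lysine, and quantile normalization gave -0.23 and -0.46 (adjusted p = 0.000493 for low lysine). Elovl6 was higher with OVA by 0.21, 0.49 and 0.33 without passing in any medium (adjusted p = 0.565, 0.0947 and 0.295). In low leucine Elovl6 passed after centring (0.67, adjusted p = 0.0321) and with only the groups compared (0.49, adjusted p = 0.0219). The Acsl3 / Utp14b probe set differed by -0.06, -0.09 and -0.10, with 95% intervals that all lie between -0.39 and 0.27, and centring turned the sign in low arginine and low leucine (0.12 and 0.09). Centring moved the medians of all features in these comparisons to 0.07, 0.05 and 0.04.

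**Figure D3:**
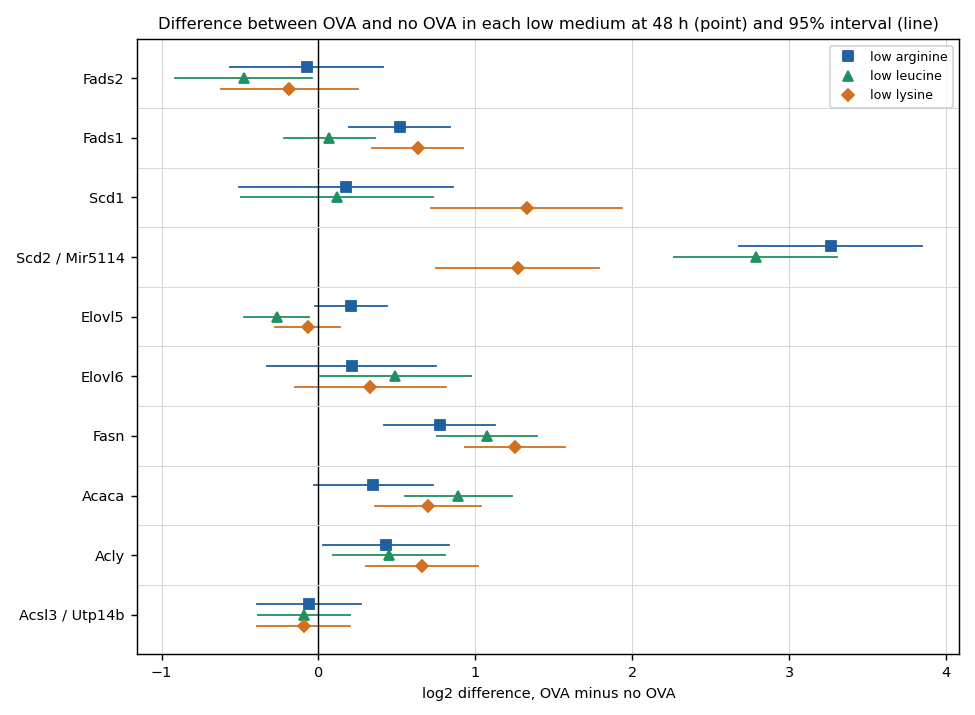
Mean log2 difference of OVA from no OVA at 48 h (x axis) within low arginine, low leucine and low lysine medium for each gene or shared probe set (y axis); lines are 95% intervals. Fasn lies to the right of 0 in all 3 media, Fads2 and Acsl3 / Utp14b do not, and the Scd2 / Mir5114 effect is 3.27, 2.79 and 1.27.

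Between the low media with OVA present, the calls among the 8 genes were of Elovl5. It was higher in low arginine (10.08, 9.96 and 10.21) than in low leucine (9.59, 9.55 and 9.74) by 0.46 ± 0.10 (limma, adjusted p = 0.0324), the one call of 8 where 0.635% of all features were called. Its level in low arginine was also above low lysine (9.65, 9.49 and 9.60) by 0.50 ± 0.10 (adjusted p = 0.00643), again 1 of 8, with 3.19% of all features called. The first call was lost in 6 of 6 fits without 1 array (adjusted p from 0.051 to 0.184). The second was lost without the third low arginine array (0.44, adjusted p = 0.0523) and when only these groups were fitted (adjusted p = 0.108).

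The Scd2 / Mir5114 probe set was higher in low arginine than in low lysine by 2.27 ± 0.25 (limma, adjusted p = 3.09e-05) and in low leucine than in low lysine by 1.53 ± 0.25 (adjusted p = 0.00356). Its low arginine arrays (9.37 to 9.85) were also all above those of low leucine (8.67 to 9.02), but the difference of 0.74 ± 0.25 did not pass (adjusted p = 0.242). With only the groups compared in the fit, low arginine against low leucine passed (adjusted p = 0.0146) and low leucine against low lysine did not (0.116). No gene with its own probe set was called between low leucine and low lysine, where 1.66% of all features were and 1 of the 8 (Scd1) had an unadjusted p below 0.05.

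Without OVA, none of the 8 genes was called between any pair of low media by limma. Of all features, 0% were called for low arginine against low leucine, 0% for low arginine against low lysine and 0.00846% for low leucine against low lysine. At an unadjusted p below 0.05 there were 0, 0 and 2 of the 8 genes, the 2 being Fads1, higher in low leucine (7.82 to 7.96) than in low lysine (7.37 to 7.46) by 0.47 (95% interval 0.19 to 0.76), and Elovl5, by 0.25 (0.04 to 0.45).

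Set directly against the low media with OVA, pretreated macrophages gave 0, 1 and 2 calls among the 8 genes. The pretreated arrays belong to other runs of submitter sample IDs than the low amino acid arrays. Run and condition therefore cannot be told apart in any of these comparisons, those with low lysine and of the shared probe sets included. Against low arginine 0 of 8 were called by limma, with 3.16% of all features called and 1 of 8 (Fads1) at an unadjusted p below 0.05. For Fads2 that difference was -0.29 (95% interval -0.72 to 0.15), for Scd1 0.39 (-0.22 to 1.00), for Fasn -0.31 (-0.62 to 0.01) and for the Scd2 / Mir5114 probe set 0.45 (-0.07 to 0.97). Against low leucine, Fasn was lower on pretreated macrophages (7.57 to 7.78 against 8.14 to 8.43) by 0.58 ± 0.15 (adjusted p = 0.0267), 1 of 8 called with 5.58% of all features. At an unadjusted p below 0.05 there were 5 of 8 (Acaca, Acly, Elovl5, Elovl6 and Fasn). The Fasn call was lost in 4 of 6 fits without 1 array, with differences from -0.65 to -0.51, and Elovl6 passed without the third pretreated array (-0.85, adjusted p = 0.0396).

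In the comparison with low lysine 2 of 8 were called, with 3.33% of all features, and 3 of 8 (Acly, Elovl5 and Fasn) had an unadjusted p below 0.05. Elovl5 was higher on pretreated macrophages (9.92 to 9.99 against 9.49 to 9.65) by 0.37 ± 0.10 (limma, adjusted p = 0.0438), and Fasn was lower (7.57 to 7.78 against 8.13 to 8.51), with a difference of -0.57 ± 0.15 (adjusted p = 0.0418). Both calls were lost in 6 of 6 fits without 1 array. The shared probe sets stood out more. Scd2 / Mir5114 was higher on pretreated macrophages than in low leucine by 1.20 ± 0.25 (adjusted p = 0.00605) and than in low lysine by 2.73 ± 0.25 (1.63e-06), and Acsl3 / Utp14b was higher than in low leucine by 0.65 ± 0.14 (0.00831). Macrophage genes of the alternatively activated list were also higher in the pretreated arrays (7.16 to 7.74) than in low leucine and low lysine (5.18 to 5.62); their part in these results was not tested.

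At 72 h, on the other platform, the 9 genes averaged lower on pretreated macrophages than with OVA alone, a comparison that helped to choose them. Fads2 had 3.92, 3.71 and 3.89, against 7.05, 7.62 and 7.93 with OVA alone, a difference of -3.69 ± 0.25. Scd1 had 7.53, 8.19 and 6.60, against 10.30, 11.27 and 11.23 (-3.49 ± 0.38). The Fads2 levels on pretreated macrophages lay near the array medians (3.87 to 4.04), with no stated background. The other Fads2 probe sets gave smaller differences, -2.28 ± 0.22 (4.88 against 7.16) and -1.13 ± 0.18 (3.16 against 4.29). The size of the true difference is therefore unknown. All 9 were called lower, with 5.9% of all features, and nothing is read from the count because this comparison helped to choose the genes.

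The other 7 genes differed by less. Elovl6 had 6.11, 6.64 and 6.60 on pretreated macrophages, against 7.79, 8.58 and 8.44 with OVA alone (-1.82 ± 0.23). Acsl3, here on its own probe sets, had 6.46, 6.94 and 6.49, against 7.77, 8.45 and 8.37 (-1.57 ± 0.25). Acaca had 6.61, 6.78 and 7.18, against 7.89, 8.41 and 8.30 (-1.34 ± 0.23), and Fasn 8.48, 7.71 and 8.22, against 8.72, 9.49 and 9.24 (-1.01 ± 0.24). Acly, Fads1 and Elovl5 differed by -0.89 ± 0.13, -0.79 ± 0.19 and -0.47 ± 0.10. As at 48 h, Elovl5 was the least different of them. Over the 6 fits that left out 1 array, the differences ran from -1.23 to -0.80 for Fasn, from -0.90 to -0.65 for Fads1 and from -0.54 to -0.42 for Elovl5. Another Fads1 probe set, at 3.50 against 3.64 and so below the array medians, gave -0.14 ± 0.23.

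**Figure D4:**
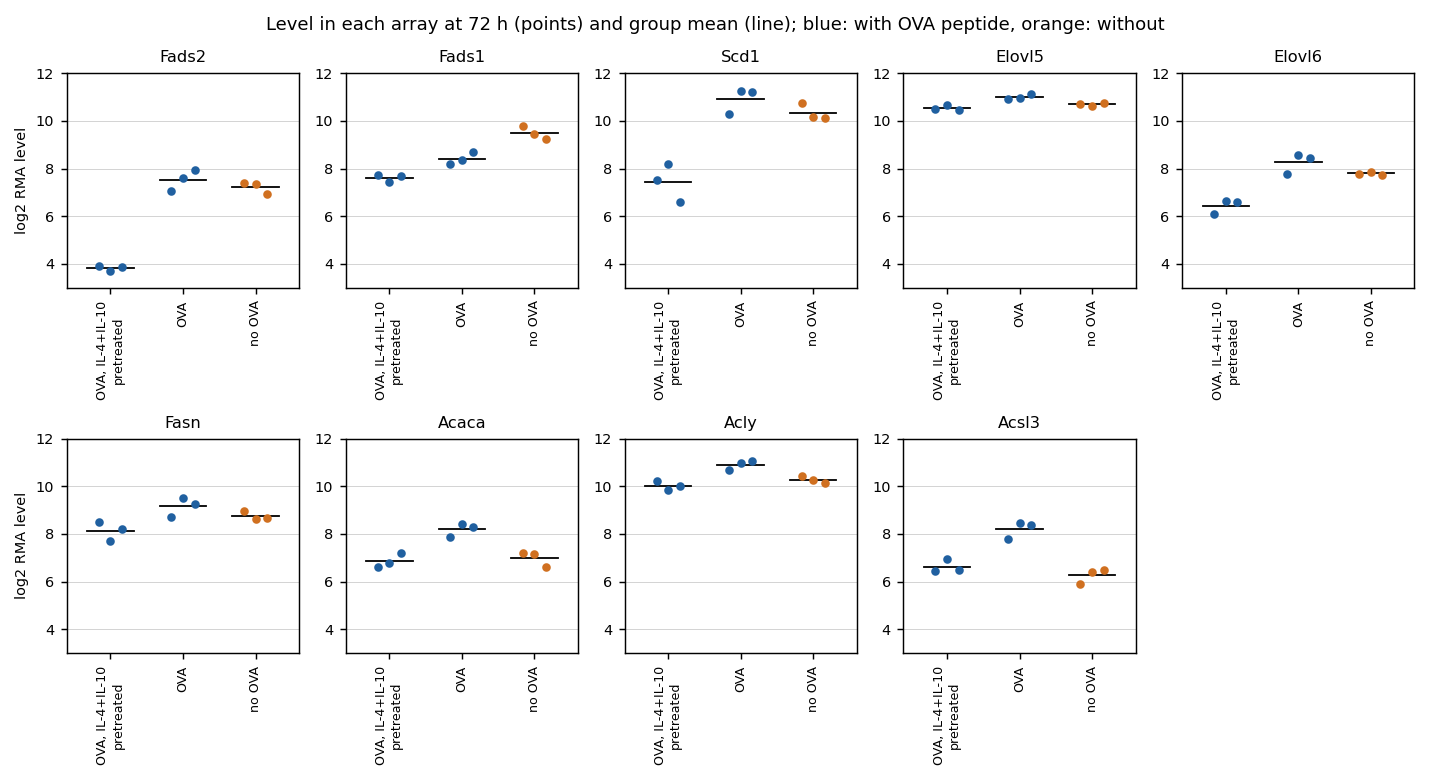
Log2 RMA level (y axis) of each gene in every array at 72 h, one panel per gene; points are arrays, lines are group means, blue is with OVA and orange without. For Fads2, pretreated arrays lie at 3.71 to 3.92 and both other groups at 6.95 to 7.93; for Fads1 the no-OVA arrays are highest.

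Set against cells without OVA at 72 h, OVA alone raised 4 of the 9 genes and lowered 1, where 38.3% of all features were called (20.8% higher, 17.5% lower). Acsl3 rose most, with 7.77, 8.45 and 8.37 against 5.89, 6.40 and 6.48 without OVA (1.94 ± 0.25, limma, adjusted p = 8.34e-05). Acaca rose by 1.22 ± 0.23 (7.89, 8.41 and 8.30 against 7.18, 7.15 and 6.61; adjusted p = 0.00134), Acly by 0.63 ± 0.13 (adjusted p = 0.00268) and Elovl5 by 0.31 ± 0.10 (adjusted p = 0.0238). Fads1 fell, with 8.19, 8.35 and 8.69 against 9.78, 9.45 and 9.24 without OVA (-1.08 ± 0.19, adjusted p = 0.000749). Fads2, Scd1, Elovl6 and Fasn were higher by 0.31, 0.59, 0.47 and 0.39, with overlapping arrays, and did not pass (adjusted p = 0.377, 0.254, 0.135 and 0.229). Without the first OVA array Elovl6 passed (0.71, adjusted p = 0.0254), and the Elovl5 call was lost without the third OVA array or the first or second no-OVA array (0.26 to 0.35 over the 6 fits). It was also lost with the run of submitter IDs as a block (0.28, adjusted p = 0.0711) and after quantile normalization (0.25, adjusted p = 0.056).

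These no-OVA arrays had higher levels of markers of other cells. Besides the mesothelial and stromal markers given above, macrophage markers averaged 3.66 to 3.71 with OVA alone, against 5.13 to 7.49 without OVA. Adipocyte markers (5 of 8 measured) averaged 3.30 to 3.39 with OVA alone, against 5.71 to 6.04 without. The part of these cells in the levels of Fads1, Scd1, Fads2 and the others was not tested.

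The probe sets of a gene also disagreed in this comparison. For Scd1 the probe set with the higher level gave 0.59 ± 0.37, and the other, at 8.14 with OVA alone against 5.79 without, gave 2.36 ± 0.28 (limma over all probe sets, adjusted p = 5.35e-05). A second Fads2 probe set rose by 1.07 ± 0.22 (adjusted p = 0.00259) and the last differed by 0.25 ± 0.18 (0.328). A second Fads1 probe set, at 3.64 with OVA alone against 4.02 without, gave -0.38 ± 0.23 and did not pass (0.237). For Elovl6, 1 of 3 probe sets rose (1.40 ± 0.29, adjusted p = 0.0025). With the mean of all probe sets 8 of 9 genes were called, and after centring arrays on their medians all 9 were (8 higher, 1 lower); centring moved the median of all features from 0.02 to 0.51. In the comparison of pretreated macrophages with OVA alone the probe sets gave one direction for every gene, from -0.14 to -3.69.

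**Figure D5:**
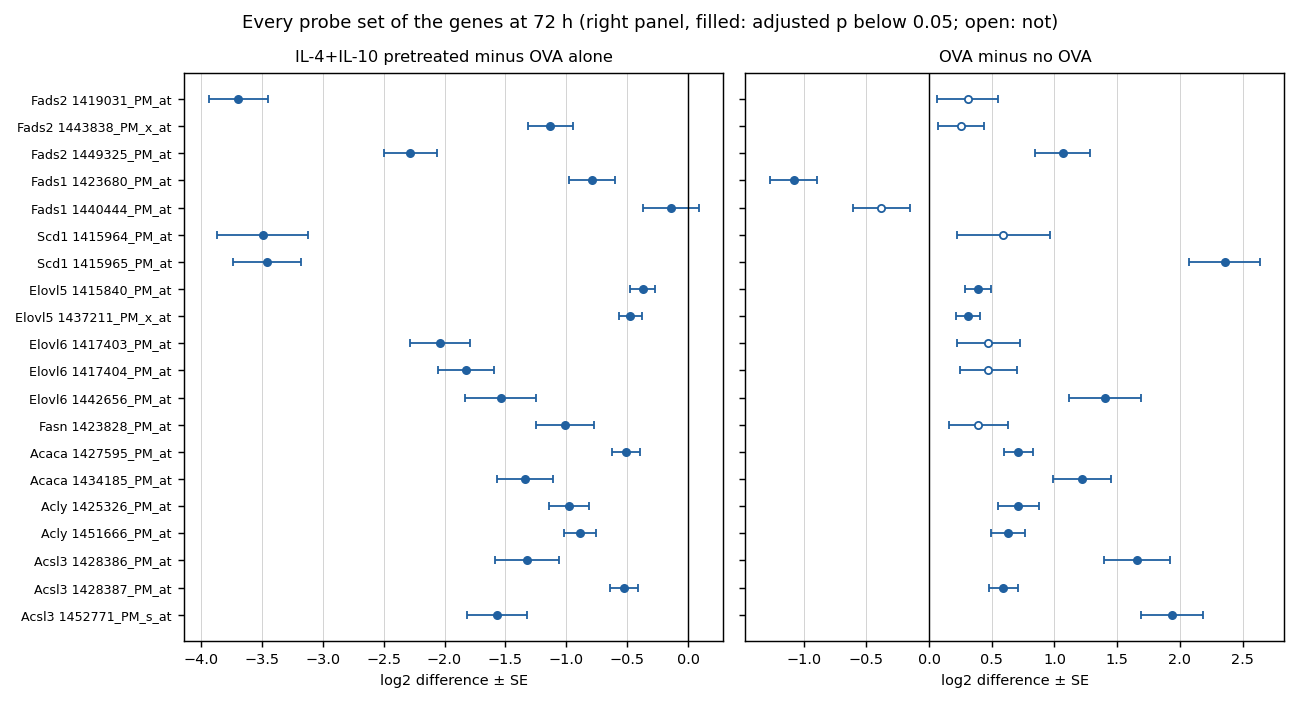
Log2 difference ± SE (x axis) of every probe set of the genes at 72 h (y axis), left for pretreated macrophages minus OVA alone and right for OVA minus no OVA. On the left all probe sets lie below 0, and on the right the probe sets of Scd1 differ (0.59 and 2.36), as do those of Fads2 and Elovl6.

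Cells on pretreated macrophages with OVA were also below cells without OVA in 4 of 9 genes, where 15.5% of all features were called lower. This comparison is the sum of the previous ones and adds no separate evidence. It contains the difference from OVA alone that helped to choose the genes, so its calls and p-values are no test of them. Fads2 had 3.92, 3.71 and 3.89, against 7.38, 7.35 and 6.95 without OVA (-3.39 ± 0.25, limma, adjusted p = 1.93e-06), and Scd1 7.53, 8.19 and 6.60, against 10.75, 10.16 and 10.11 (-2.90 ± 0.38, adjusted p = 0.000121). The other Fads2 probe sets gave smaller falls of the same direction (-1.21, adjusted p = 0.00145, and -0.88, adjusted p = 0.00334), as did the other Scd1 probe set (-1.10, adjusted p = 0.0115). Fads1 fell by 1.87 and Elovl6 by 1.35 (adjusted p = 1.8e-05 and 0.000848). The calls of Elovl6 and Fads1 depended on the probe set. Another Elovl6 probe set gave -0.14 ± 0.29 (adjusted p = 0.793), and another Fads1 probe set -0.52 ± 0.23 (0.122). That Fads1 probe set averaged 3.50 against 4.02 without OVA, near or below the array medians, so it may hold little signal. Fasn, with 8.48, 7.71 and 8.22 against 8.98, 8.62 and 8.67, did not pass (-0.62, adjusted p = 0.0689), but did without the first pretreated array (-0.79, adjusted p = 0.0303). Acaca, Acly, Acsl3 and Elovl5 differed by -0.12, -0.26, 0.37 and -0.16 with overlapping arrays, and after centring by 0.32, 0.18, 0.81 and 0.28, where Acsl3 passed (adjusted p = 0.0162).

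The genes whose profile over the 8 groups at 48 h was most like that of each enzyme gene were found by the root mean square (RMS) difference of group means, after each gene was centred on its own mean. Fads2 and Scd1 were each other's closest gene of all, 0.48 apart on the log2 scale, and the next for both were Fdps and Hmgcs1, enzymes of the mevalonate pathway, at 0.63 to 0.85. Closest to Fasn were Scarb1, the HDL receptor (0.11), Fdft1, squalene synthase (0.15), and Aifm1 (0.18). Acaca was most like Ifng, interferon gamma (0.12), Sdf2l1 (0.12) and the sterol enzyme gene Sc5d (0.13). The Acsl3 / Utp14b probe set was most like Dbi, an acyl-CoA binding protein gene, Pcyt2 and Mvd (0.20 to 0.21). For the Scd2 / Mir5114 probe set the nearest were Gm19585, Iigp1 and Gbp11 at 0.65 to 0.69. Acly was nearest to Rnpep, Prps2 and Dpp3, Elovl5 to Pik3cd, Kmt5c and Stamos, Elovl6 to Nt5dc2, Sc5d and Cenpa, and Fads1 to Tex2, Dpy19l1 and Oat. These distances describe 8 group means of the same arrays and carry no test.

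The 10 genes were chosen for their differences, so the lists that follow are not set against them. Of all features, 2.59%, 1.49%, 1.13% and 2.89% were called higher than in full medium on pretreated macrophages and in low arginine, low leucine and low lysine, beside the lower shares given above. Of 28 other genes of fatty acid synthesis and elongation, 6 were called lower and 0 higher on pretreated macrophages than in full medium at 48 h. In low arginine it was 6 lower and 0 higher, in low leucine 3 lower and 1 higher, and in low lysine 6 lower and 1 higher. Their median difference was -0.09, -0.13, -0.15 and -0.16, beside the medians over all features given above. Slc25a1, the mitochondrial citrate carrier that feeds Acly, averaged 8.47 on pretreated macrophages, 7.52 in low arginine, 7.95 in low leucine and 8.15 in low lysine, against 9.08 in full medium. Cyb5r1, a cytochrome b5 reductase, was higher in low leucine (8.86) and low lysine (8.37) than in full medium (7.51).

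Of 17 measured genes of SREBP and LXR control, 5, 4, 5 and 5 were lower and 2, 0, 0 and 1 higher in the same 4 comparisons, with medians of -0.02, -0.23, -0.12 and -0.44. Insig1, which encodes a sterol-regulated retainer of SREBP and is itself an SREBP target, averaged 7.72 on pretreated macrophages, 7.24 in low arginine, 7.04 in low leucine and 8.04 in low lysine, against 9.75 in full medium. The SREBP genes were lower in the comparisons given here, which are not all 4 for either gene. Srebf2 differed by -1.08 ± 0.21 on pretreated macrophages, -1.12 ± 0.21 in low arginine and -0.76 ± 0.21 in low leucine. Srebf1 differed by -0.80, -0.86 and -0.74 (± 0.14) on pretreated macrophages, in low arginine and in low lysine. Abca1, a cholesterol exporter gene and LXR target, was higher on pretreated macrophages (7.10 against 5.86), together with the macrophage genes named above.

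Of 19 genes of glycerolipid synthesis, which joins fatty acids to glycerol, 3, 4, 3 and 4 were lower and 0 higher (medians -0.14, -0.24, -0.08 and -0.27), with Mboat1 (-0.71 to -1.17) and Lpin1 (-0.71 to -0.99) among them in all 4. Fatty acid oxidation (19 measured) had 2, 0, 0 and 3 lower and 0, 1, 0 and 1 higher (medians -0.19, 0.005, -0.07 and -0.32). Among 9 other acyl-CoA synthetase genes 1, 0, 1 and 1 were lower, among 9 genes of fatty acid uptake and binding 0, 1, 1 and 0 were lower and 3, 0, 0 and 0 higher, and among 11 energy and nutrient kinase genes 2, 1, 0 and 1 were lower and 1, 0, 0 and 0 higher.

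In the low media OVA changed members of these lists in both directions, as it did 17.1%, 21.8% and 18.2% of all features upward and 12.3%, 19.9% and 12.8% downward in low arginine, low leucine and low lysine. The medians over all features were -0.12, -0.13 and -0.09, and several of the counts lie near these shares. Of the 28 genes of fatty acid synthesis and elongation, 6 rose and 5 fell in low arginine, 10 rose and 3 fell in low leucine, and 10 rose and 3 fell in low lysine. Cyb5r1 (1.43, 2.08 and 1.93) and Hsd17b12, which acts in chain elongation (1.34, 1.41 and 1.19), rose in all 3. Their median difference was 0.06, 0.004 and 0.06. Fatty acid oxidation had 8, 9 and 10 of 19 genes higher and 0, 1 and 0 lower (medians 0.29, 0.37 and 0.48). Glycerolipid synthesis had 6, 9 and 9 of 19 higher and 0, 1 and 0 lower (medians 0.16, 0.29 and 0.27). Agpat5, an acyltransferase of that pathway, rose by 1.39, 1.81 and 1.66. Of the 9 uptake and binding genes 5, 5 and 4 fell and 1, 1 and 0 rose (medians -1.03, -1.12 and -0.45). Other acyl-CoA synthetases had 2, 2 and 2 of 9 higher and 3, 2 and 3 lower, and the kinases 2, 7 and 5 of 11 higher and 0 lower. Among SREBP and LXR genes 4, 7 and 5 of 17 rose and 3, 6 and 4 fell, with Nfyb, an NF-Y subunit, higher by 1.83, 1.67 and 1.06.

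At 72 h, pretreated macrophages gave 4 lower and 2 higher of 24 genes of fatty acid synthesis and elongation relative to OVA alone, with a median of -0.19 against 0.02 over all features, of which 5.9% were called lower and 3.83% higher. Acss2, which makes acetyl-CoA from acetate, averaged 5.04 against 7.59 with OVA alone (-2.54 ± 0.40), and Cyb5r1 10.15 against 7.92 (2.23 ± 0.16). Insig1 averaged 6.47 against 8.71 (-2.24 ± 0.22) and Srebf2 7.26 against 8.59 (-1.32 ± 0.28). Both were among the 3 SREBP and LXR genes lower of 15 measured, where another 3 were higher and the median was -0.01. Glycerolipid synthesis had 4 of 18 lower and 0 higher, with Lpin1 at -1.74 ± 0.31, and fatty acid oxidation 5 of 18 lower and 0 higher. OVA alone against no OVA gave 3 higher and 6 lower of the 24 (median -0.02), where 20.8% of all features were higher and 17.5% lower. The lower ones included Hacd4 (3.44 with OVA alone, against 9.70 without), Fads3 (4.05 against 7.96) and Me1 (4.26 against 7.18), in the arrays whose stromal markers differed as described.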

How the data were processed

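Sorted CD4+ T cells were measured on 23 MoGene-2_0-st arrays (48 h) and 9 HT_MG-430_PM arrays (72 h). The deposited values are log2 levels that the authors made by RMA with Affymetrix Expression Console 1.1, per the submitters' processing notes; which arrays were normalized together, and any probe filter, is not given in the sources used here. The number of arrays limits the precision.

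Probe sets were named through GEO's platform annotation. At 48 h 23525 of 41345 had 1 gene symbol, 1810 several and 16010 none, and at 72 h 28899 of 45037 had 1, 550 several and 15588 none. A gene was read by its probe set with the highest mean. Each platform was fitted on its own with limma 3.58.1 (R 4.3.3; lmFit, contrasts.fit and eBayes with trend), with all its groups in 1 fit and no covariate. The 19 comparisons and 1 moderated F test of the OVA effect between media were two-sided and adjusted by Benjamini-Hochberg over all features of a comparison, and called at an adjusted p below 0.05. Tables, promoter windows and figures were made with Python 3.11.15 (pandas 2.3.3, numpy 2.4.6, matplotlib 3.10.9). The fit was tested on simulated data before use.

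The 10 genes and the gene and marker lists were chosen with earlier results of these data known. From each list the text names up to 4 called genes with the largest change. The alternatives were the mean of a gene's probe sets, arrays centred on their medians, quantile normalization, leaving out the dimmest genes (a fraction of 0.25), no intensity trend, only the groups compared, replicate number or run of submitter IDs as a block, and each array left out in turn; single probe sets at 72 h were added after seeing the data. Deviations of same-numbered arrays from their group means correlated above 0.1 in every pair for 6 comparisons: low arginine against full medium (0.16 to 0.61), low leucine against full medium (0.28 to 0.60), OVA against no OVA in low leucine (0.24 to 0.49), low arginine against low leucine with OVA (0.48 to 0.64), pretreated against low lysine (0.20 to 0.40) and pretreated against OVA alone at 72 h (0.17 to 0.27). The numbers come from the sample titles, and the replicate block changed no call in those 6.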

Additional observations from a re-analysis of the deposited data

Results flagged for a closer look

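The OVA effect on the probe set annotated to Scd2 and Mir5114 differed between low arginine, low leucine and low lysine medium at 48 h, where it was 3.27, 2.79 and 1.27 on the log2 scale, with all OVA arrays above those without OVA in each medium. This was singled out because the test of the difference itself passed (limma's moderated F test, adjusted p = 0.038). It also passed in 4 of 8 other alternatives (adjusted p from 0.02 to 0.0781), and in 2 of the 17 fits that left out 1 array (0.0032 to 0.154). With OVA, B cell markers averaged 5.71 to 6.26 in low arginine, 5.56 to 5.75 in low leucine and 5.74 to 7.14 in low lysine, and their part in the result was not tested.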

How the results depend on the processing

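Under the alternatives other than leaving out 1 array, 29 single-gene values lost and 20 gained a call. Another 2 changed sign with a call in one of the fits, both after quantile normalization in the OVA effect of low leucine (Acly -0.075 and Fads1 -0.43). A further 24 changed sign without passing in either fit. Over single probe sets at 72 h, 5 lost and 3 gained a call. The cause was not tested. Counts of genes called were within 1.5 times the reported count in 139 cases and moved in 15. The OVA count in low arginine (2) became 4 with centring and 0 with quantile normalization. Low arginine against low leucine with OVA (1) became 0 with centring, without the intensity trend and with the ID run as a block; low arginine against low lysine (1) became 0 with only the groups compared. Pretreated against low leucine (1) became 2 with quantile normalization, without dim genes and with the replicate block, and pretreated against low lysine (2) became 1 with centring, with quantile normalization and without the trend, and 0 with only the groups compared. The 72 h OVA count (5) became 8 with the mean of probe sets and 9 with centring.

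With each array left out in turn, counts ranged from 7 to 7 for pretreated against full medium, 6 to 7 for low arginine, 6 to 8 for low leucine and 7 to 8 for low lysine. For OVA against no OVA they ranged from 0 to 2 in low arginine, 2 to 3 in low leucine (4 with all arrays) and 4 to 5 in low lysine. They were 0 to 0 for low arginine against low leucine with OVA and for pretreated against low lysine, 0 to 1 for low arginine against low lysine and 0 to 2 for pretreated against low leucine. At 72 h they ranged from 6 to 9 for pretreated against OVA alone, 4 to 6 for OVA against no OVA and 4 to 5 for pretreated against no OVA. The other counts stayed at 0. A low arginine group without OVA left with 1 array was assumed to vary like the other groups.

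With the replicate number as a block, Elovl5 was also called for pretreated against full medium (-0.28) and against low leucine (0.32, limma, adjusted p = 0.0289), where same-numbered arrays did not all correlate (-0.41 to 0.22 and -0.48 to 0.35) and share only a number; no other call changed. Scaling moved the share of all calls that were higher. With centring it was 82.4%, 75.4% and 78.0% for OVA in low arginine, low leucine and low lysine (58.1%, 52.2% and 58.7% as reported), 20.3% for low lysine against full medium (31.7%), and at 72 h 85.4% for OVA (54.4%) and 85.5% for pretreated against no OVA (52.3%). With quantile normalization it was 48.4% for pretreated (30.7%), 48.4% for low arginine (32.7%) and 45.0% for low lysine (31.7%) against full medium, 48.5% for low arginine against low leucine (34.7%), 64.9% for low arginine (81.8%), 64.0% for low leucine (84.2%) and 67.3% for pretreated (79.3%) against low lysine, and 56.8% for pretreated against low leucine (42.1%). With no detection calls, how far a low level lies above background is unknown.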
